A study of Oryctolagus cuniculus with 15 samples.

Results

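The comparison described here set keratocytes embedded at the lower of 2 densities in a fibrillar collagen matrix (3DF_50) against keratocytes grown on a collagen-coated dish and lysed in place (2DC_L), over every gene of the count table. Its members are the 6 libraries of these conditions, 3 of each, out of 15 in the series. All cells were primary corneal keratocytes of New Zealand white rabbits, used at first passage and held in serum-free medium for 6 days, with fresh medium on days 2 and 5, on or in bovine type I collagen. For 3DF_50, 50000 cells were seeded per matrix, and the matrices were lifted, pooled and broken down with collagenase and hyaluronidase before the cells were pelleted and lysed. For 2DC_L, lysis buffer went straight onto pooled dishes, with no enzyme step. The 3 libraries of a condition came from separate experiments. The conditions differed in embedding, in collagen form (fibrillar matrix against coating), in stiffness, in effective cell density and in the enzyme step. They also differed in handling, since only the 3D cells were lifted, rocked in tubes and pelleted. Levels given as in 3D are those of the 3DF_50 libraries, with no one of these factors credited. A 3D library made without digestion was not among the samples, and these factors cannot be told apart within this comparison. Beside it stand 3 further comparisons. The first is 3DF_50 against 2DC, the coated dish given digestion medium before lysis. The 2DC cells were rinsed and lysed in the dish, so lifting, rocking and pelleting differ in that comparison too. The second, 2DC against 2DC_L, is called the enzyme step on the dish. It holds the enzymes, the warm incubation in digestion medium and the rinse together. The third is 3DF_50 against 3DF, the matrix seeded more densely. All 3 share libraries with the main one, so their values are set side by side and are no independent support.

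Keratocytes are the resident cells of the corneal stroma. In the quiet cornea they sit between collagen lamellae, make the keratan sulfate proteoglycans that keep the fibrils evenly spaced, and hold water-soluble enzymes known as corneal crystallins. On rigid plastic, or after wounding, such cells can enter the cell cycle, build stress fibres and lay down a different matrix. Immediate early genes, such as those of the FOS, JUN and EGR families, are switched on within minutes of a stimulus without new protein synthesis, which makes them sensitive to how cells are handled before lysis.

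Of 13321 genes that passed the filter on low counts, 1801 were differentially expressed genes (DEGs), which had to differ by 1 or more on the log2 scale and pass edgeR's test at an adjusted p of 0.05. They made up 13.5% of the genes tested. In 3DF_50, 673 of them were higher (5.05%) and 1128 were lower (8.47%). Counts for gene lists below are to be read against these shares of all genes tested. The typical DEG differed by 2.89-fold when higher and by 3.17-fold when lower, and changes of 4-fold or more were found for 186 higher and 419 lower genes. Ranked by fitted fold change among genes with a symbol, counts in both conditions, no overlap between them and a mean of at least 1 FPKM over the 6 libraries (reads scaled to transcript length and library depth), the largest increases were in the immediate early genes FOS, FOSB, EGR1 and EGR2, in DUSP2, a phosphatase that switches off MAP kinases, and in ATOH8 and PDZRN4. The deepest decreases by the same ranking were in the mitosis gene CDK1 and in the matrix and membrane genes SLCO1B3, TNC, PTX3, TINAGL1, COL5A3 and CAV1.

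**Figure D1:**
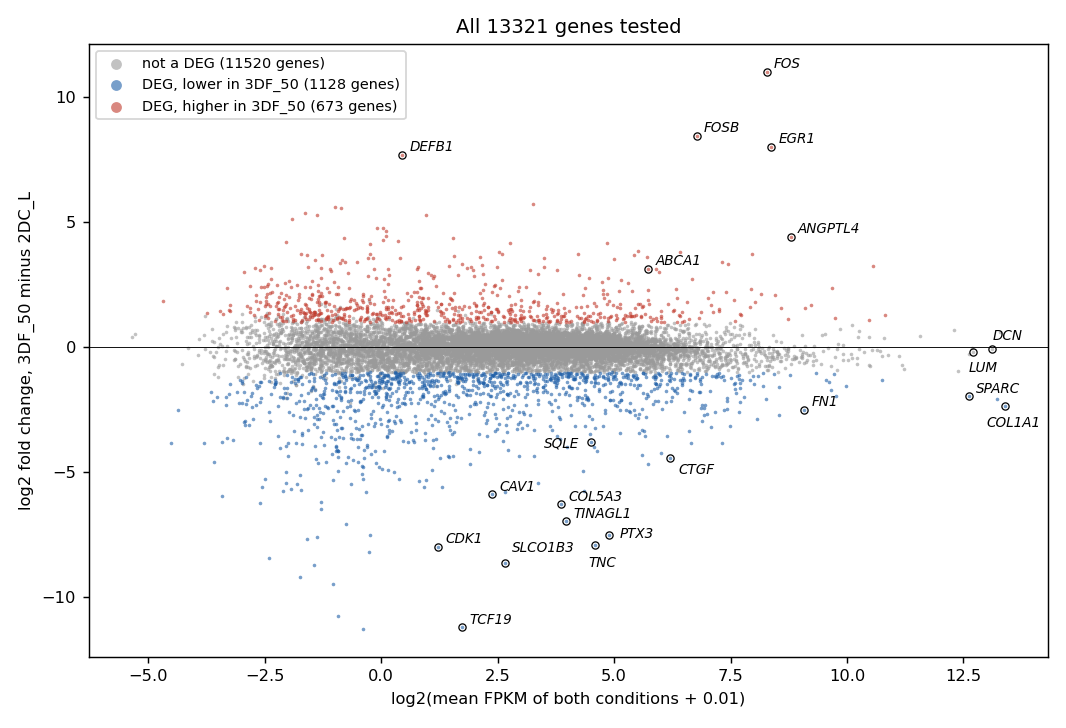
Each point is 1 of the 13321 genes tested, with the log2 of its mean FPKM over both conditions on the x axis and the log2 fold change of 3DF_50 against 2DC_L on the y axis. Red points are the 673 DEGs higher in 3DF_50 and blue points the 1128 lower ones; genes with 0 counts in a condition, such as DEFB1 and TCF19, are drawn at their fitted value, which is no bound, and COL1A1, SPARC, LUM and DCN lie at the right because they are the most abundant genes named.

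The 6 libraries held 14626982 to 30518172 counted fragments, fewer in 3DF_50 (14626982 to 16472547) than in 2DC_L (17973130 to 30518172). COL1A1 alone took 7.63 to 8.83% of the fragments in 2DC_L and 1.98 to 2.23% in 3DF_50. Scaling to total counts alone, which lets such genes weigh on all others, moved the median of all genes by 0.36 on the log2 scale, and the split became 1357 higher and 747 lower genes. Changes below are relative to the TMM scale, on which the median gene was at 0.0040. The deposited FPKM followed that scale and not total counts. COL1A1, for example, differed more between the conditions in FPKM than in its share of fragments. Levels, list sums and overlap in FPKM therefore depend on that scaling. The FPKM of the conditions did not overlap for 55.2% of the genes tested (27.6% with all 3D libraries above and 27.6% with all below), so a lack of overlap is common here. In bulk RNA, fewer cells that express a gene and less RNA of it per cell cannot be told apart.

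Library names carried a prefix, and 2 prefixes, E3 and E7, occurred in both conditions. The labels do not say what a prefix marks. Within E3 and within E7, 1796 of the 1801 DEGs lay on the same side, and 1329 of them (73.8%) differed by at least 2-fold in one direction in both, against 10.5% of all genes tested. The DEGs were chosen from contrasts that include these libraries, so this share describes them and tests nothing. Fitting only the E3 and E7 libraries gave 1555 DEGs, of which 1433 were DEGs of the main comparison in the same direction.

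**Figure D2:**
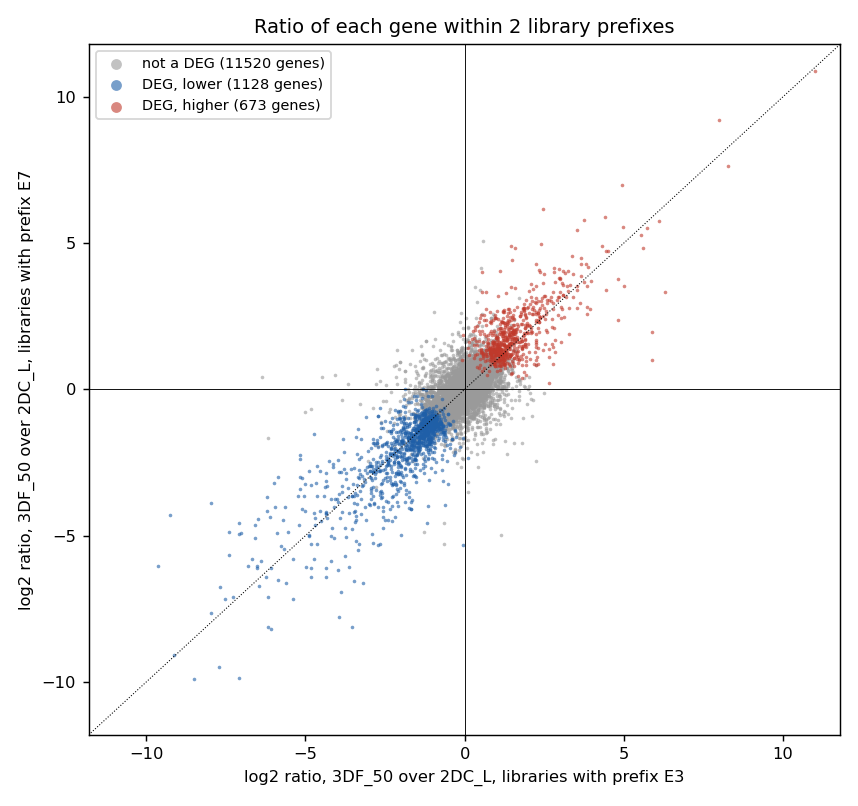
Each point is 1 gene, with the log2 ratio of 3DF_50 over 2DC_L between the E3 libraries on the x axis and between the E7 libraries on the y axis; coloured points are DEGs and grey points are other genes tested. Pearson's r across genes was 0.827, with 1 library of each condition behind each axis and genes that are not independent of each other.

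The label of the cells was checked against markers. Genes of the keratocyte, the leucine-rich proteoglycans and the crystallins, were among the most abundant in every library of both conditions. The summed FPKM of the keratocyte markers was 26981 to 32730 in 2DC_L and 22484 to 25881 in 3DF_50. DCN, decorin, which coats collagen fibrils, read 8518, 8422 and 10539 FPKM in the 2DC_L libraries and 8632, 8348 and 9065 in 3DF_50, and the conditions overlapped (log2 fold change -0.07 ± 0.16 (SE), edgeR adjusted p = 0.737). LUM, lumican, likewise overlapped, with 7387, 6526 and 7299 FPKM on the dish and 6555, 5272 and 6820.1 in 3D. KERA, keratocan, lay below the dish in every 3D library, at 1820.0, 1507 and 1966 FPKM against 2808, 2502 and 3351, a difference of -0.71 that did not reach the fold limit for a DEG. OGN (-0.93, and a DEG at -1.04 without 2DC_L replicate 2), another small proteoglycan, and the crystallins ALDH1A1 (0.51) and TKT (0.50) were no DEGs either.

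Of 13 keratocyte markers tested, 1 was higher and 1 was lower (3 and 1 with scaling to total counts). This is 7.69% each way, against 5.05% higher and 8.47% lower of all genes tested. AQP1, a water channel, was the higher one. It read 175, 476 and 135 FPKM in the dish libraries and 1172, 1612 and 1324 in 3D, so the dish libraries were uneven among themselves and all lay below the 3D ones (log2 fold change 2.38 ± 0.41, edgeR adjusted p = 0.00123). The ratio was 1.29 on the log2 scale within E3 and 3.31 within E7. CLU, the secreted chaperone clusterin, was lower by 1.39 on the log2 scale.

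Marker lists of other cells the stroma could bring along summed to far less than the keratocyte list in every library of both conditions. Of 25 corneal epithelial markers listed 2 passed the filter and neither was a DEG, and the epithelial keratin KRT12 averaged 0 FPKM in 2DC_L and 0.711 in 3DF_50. The epithelial list summed to 1.37 to 2.72 FPKM on the dish, and to 0.883, 1.24 and 12.5 in the 3D libraries; with no filter on low counts, 4 of the list were higher and 1 was lower. The immune list summed to 11.9 to 20.8 FPKM in 2DC_L and 5.28 to 8.87 in 3DF_50, with the leukocyte gene PTPRC at a mean of 0.0660 and 0.0187 FPKM and 1 of 5 genes tested lower (LCP1, -2.89; 2 higher and 1 lower with scaling to total counts). The vascular list summed to 97.1 to 116 and 127 to 151 FPKM, with PECAM1 at a mean of 0.0328 and 0, and 1 of 7 tested was higher (EMCN, 1.62) and 1 lower (TIE1, -2.88). The Schwann cell and melanocyte list summed to 11.7 to 16.03 and 17.5 to 22.6 FPKM, with 1 of 9 lower (PMEL, -1.86; no DEG, with an edgeR adjusted p of 0.0630, in the E3 and E7 libraries alone). Genes known from the corneal endothelium moved with the conditions: 5 of 9 tested were lower and 1 was higher, and their summed FPKM was 603 to 751 on the dish and 182 to 234 in 3D. The lower ones were TMEM178A (-2.79), the bicarbonate transporter SLC4A4 (-2.52), ALCAM (-2.22), the collagen chain COL8A2 (-2.19) and GPC4 (-1.78). The endothelial pump component ATP1B1 was higher (1.55), and SLC4A11, a defining endothelial transporter, was no DEG (-0.13). What part such cells had in the matrix results below was not tested.

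**Figure D3:**
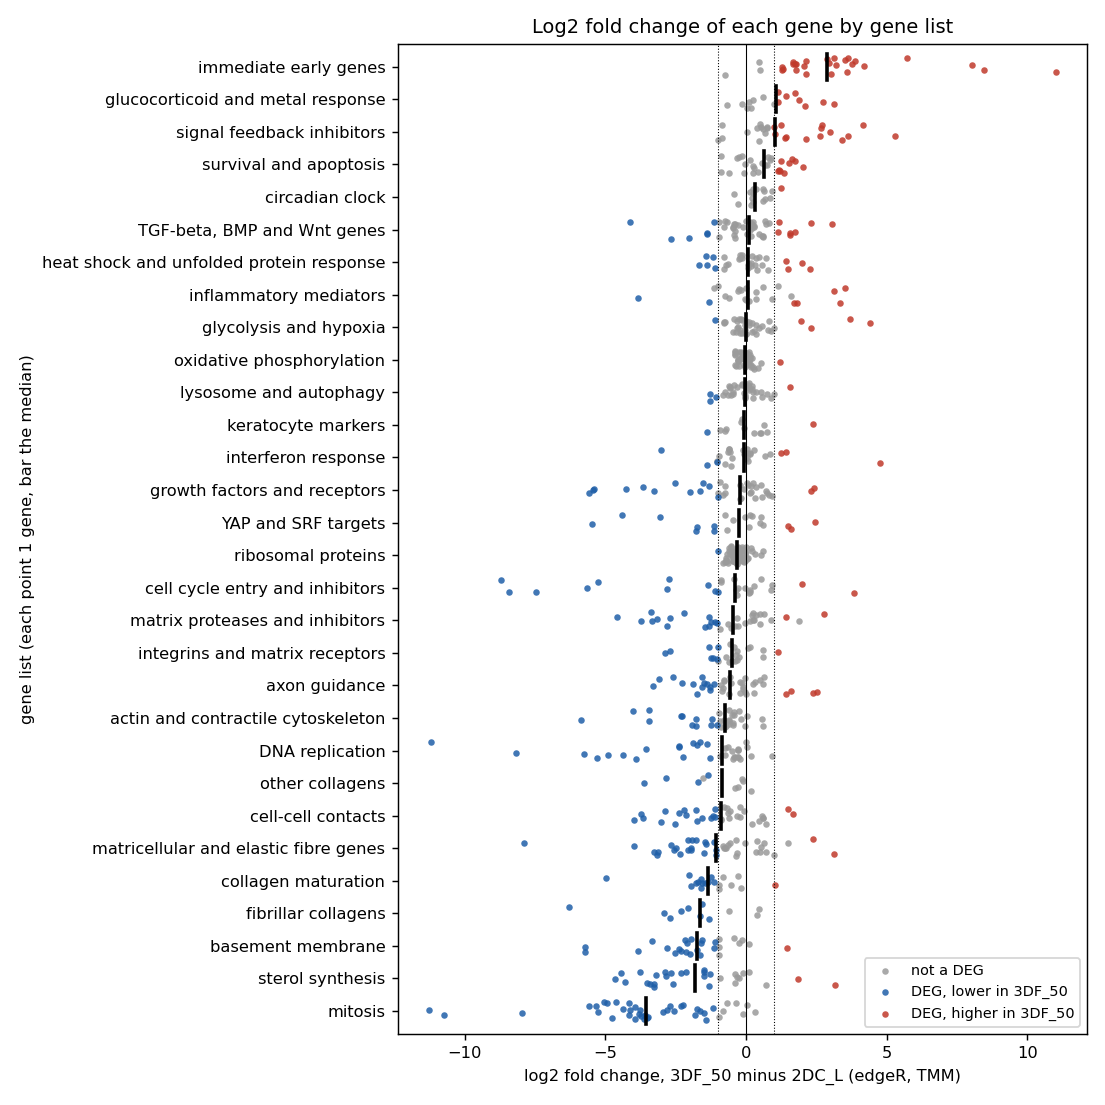
Rows are gene lists, each point is 1 gene of the list that passed the filter, and the x axis is its log2 fold change, 3DF_50 minus 2DC_L; black bars are list medians, dotted lines mark the limit of 1, red points are DEGs higher and blue points DEGs lower in 3DF_50. The mitosis list lies farthest to the left (median -3.56) and the immediate early list farthest to the right (median 2.88). The keratocyte and respiratory chain lists stay close to 0, and the ribosomal list has a median of -0.31.

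The fibril-forming collagens were mostly lower in 3DF_50. Of 11 chains tested 8 were DEGs, every one of them lower, against 8.47% of all genes; the list median was -1.62. The main corneal chain COL1A1 (chromosome 19, 37474894 to 37490691) read 19544, 16792 and 17361 FPKM in the 2DC_L libraries and 3868, 3347 and 3481 in the 3DF_50 libraries. Every 3D library thus lay far below every dish library, with little spread inside either condition. Its level was 5.01-fold lower in 3D (log2 fold change -2.33 ± 0.18, edgeR adjusted p = 1.02e-05), and the ratios within E3 and E7 were -2.13 and -2.30. Its partner chain COL1A2 was lower by 2.05 on the log2 scale, with 16400.0, 13669.9 and 16186 FPKM on the dish and 4282, 3079 and 3797 in 3D.

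The minor chain COL5A3 changed most in this group. It read 32.5, 34.8 and 18.9 FPKM on the dish and 0.360, 0.196 and 0.546 FPKM in 3D, where it was close to absent (log2 fold change -6.28 ± 0.33, edgeR adjusted p = 1.04e-06). The chains COL5A1 (-1.30, and -0.95, no DEG, with scaling to total counts) and COL5A2 (-1.56), which help to set fibril diameter, were lower by less. COL3A1, typical of wounds, was low on the dish already, at 2.18, 1.95 and 1.68 FPKM, and lower still in 3D (-2.93). Not every collagen followed. COL6A1, a chain of the beaded filaments of the stroma, read 1832, 1901 and 1506 FPKM on the dish and 1695, 1485 and 1587 in 3D, and the conditions overlapped (-0.13 ± 0.14, edgeR adjusted p = 0.477). The chains COL6A2 (-0.11) and COL6A3 (-0.28) were no DEGs either. Among the 10 chains outside the fibrillar group that were tested, 4 were lower, including the fibril-associated COL12A1 (-1.71) and COL14A1 (-2.85).

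Basement membrane genes were lower too: 19 of 27 tested were lower and 1 was higher, with a list median of -1.76. NID2, a linker between laminin and collagen IV (chromosome 17, 70920218 to 70996320), read 47.2, 31.9 and 40.5 FPKM in 2DC_L and 0.618, 0.681 and 0.914 FPKM in 3DF_50. The conditions lay far apart, with all 3D libraries under 1 FPKM (log2 fold change -5.74 ± 0.19, edgeR adjusted p = 6.81e-08). The collagen IV chains COL4A3 and COL4A4, which sit head to head on chromosome 7 and form 1 network, went the same way. COL4A3 averaged 298 ± 119 FPKM on the dish and 20.8 ± 2.23 in 3D, and COL4A4 averaged 177 ± 54.7 and 17.3 ± 2.74 (SD, n = 3). LAMA2 (-2.83) and the heparan sulfate proteoglycan HSPG2 (-2.53) were further lower members, and LAMC3 (1.46) was the higher one. LAMC1, the most abundant laminin chain here, differed by -0.42 and was no DEG.

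Among glycoproteins of the matrix, 21 of 41 tested were lower and 2 were higher (18 and 5 with scaling to total counts). TNC, tenascin-C, a protein of healing and developing matrix, read 59.4, 64.8 and 20.1 FPKM in 2DC_L and 0.421, 0.0459 and 0.142 FPKM in 3DF_50. The third dish library was lower than the other two, and all dish libraries lay far above all 3D libraries (log2 fold change -7.91 ± 0.63, edgeR adjusted p = 1.15e-05; -7.26 within E3 and -7.10 within E7). FN1, fibronectin, was 5.605-fold lower, with 714, 1003 and 1052 FPKM on the dish and 139, 155 and 199 in 3D. SPARC, a collagen-binding protein among the most abundant transcripts of these cells, fell from 10011 ± 818 FPKM to 2585 ± 419.5 (SD, n = 3). POSTN (-3.29), FBN2 (-3.15) and the small proteoglycans ASPN (-3.13) and BGN (-1.97) were lower as well. The higher genes were CRISPLD2, a secreted glycoprotein that answers to glucocorticoids, at 16.2, 12.5 and 8.18 FPKM on the dish and 100.1, 111 and 112 in 3D, and the guidance cue NTN1 (2.37).

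Genes that modify and cross-link collagen were lower together with the chains. Of 19 tested, 12 were lower and 1 was higher. The collagen chaperone SERPINH1 read 601, 559 and 525 FPKM on the dish and 213, 154 and 193 in 3D, a log2 fold change of -1.59 ± 0.13 (edgeR adjusted p = 1.36e-05). Prolyl hydroxylase subunits were lower by 1.45 (P4HA1), 1.72 (P4HA2) and 4.98 (P4HA3) on the log2 scale. The cross-linking enzymes LOX, at 495 ± 39.8 FPKM on the dish and 119 ± 44.5 in 3D (SD, n = 3), and LOXL4 (-3.997) were lower too. ADAMTS3, which trims the procollagen ends, was higher (1.02 ± 0.16), but not as a DEG without 2DC_L replicate 1 (0.85), without 3DF_50 replicate 3 (0.94) or with any block on the library prefix (0.90 to 0.99).

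Proteases and their inhibitors split. Of 34 tested, 14 were lower and 2 were higher (9 and 3 with scaling to total counts). The membrane collagenase MMP14 read 68.1, 58.2 and 66.5 FPKM in the dish libraries and 168, 179 and 162 in 3D, a 2.64-fold higher level in 3D with tight groups (log2 fold change 1.40 ± 0.10, edgeR adjusted p = 5.87e-06). Its substrate, the gelatinase MMP2, was 1.84-fold higher, under the limit for a DEG (0.88 ± 0.16, edgeR adjusted p = 0.0018; 1.24 and a DEG with scaling to total counts), with no overlap between 804, 861 and 661 FPKM and 1414, 1660.4 and 1206. TIMP1, an inhibitor of metalloproteinases, was lower, at 816, 714 and 422 FPKM on the dish and 118, 70.7 and 108 in 3D (-2.72). MMP12 (-4.60), MMP16 (-3.75) and the aggrecanase ADAMTS5 (-3.16) were lower as well.

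Of 24 receptors that hold cells to matrix 7 were lower and 1 was higher, and with scaling to total counts 2 were lower. The shared subunit ITGB1 read 248, 238 and 312 FPKM and 129, 133 and 137 FPKM, a difference at the fold limit that fell just short of it (-0.997 ± 0.12, edgeR adjusted p = 0.000158) and passed it without 2DC_L replicate 1 (-1.05), 2DC_L replicate 2 (-1.07) or 3DF_50 replicate 3 (-1.02). The collagen receptor subunit ITGA1 was lower (-1.32, and -0.97, no DEG, with scaling to total counts), as was the heparan sulfate carrier SDC1, at 75.8 ± 14.3 FPKM on the dish and 11.6 ± 2.41 in 3D (SD, n = 3). ITGB4 was higher at a low level, 0.592 ± 0.111 FPKM in 3D (SD, n = 3; 1.13, and 0.98, no DEG, without 3DF_50 replicate 1).

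Contractile genes were lower where they changed. Of 34 tested 12 were lower and 0 were higher. CAV1, the coat protein of caveolae (chromosome 7, 28753340 to 28800840), read 10.6, 9.23 and 10.9 FPKM in 2DC_L and 0.162, 0.0961 and 0.254 FPKM in 3DF_50 (log2 fold change -5.87 ± 0.22, edgeR adjusted p = 1.31e-07). MYL9, the regulatory light chain of non-muscle and smooth muscle myosin, read 40.5, 49.1 and 33.6 FPKM and 3.17, 3.29 and 4.68 FPKM, an 11.01-fold lower level. The myofibroblast marker ACTA2 was low in both, at 1.44, 3.90 and 0.820 FPKM on the dish and 0.128, 0.163 and 0.268 FPKM in 3D, and was lower in 3D (-3.44 ± 0.66), with ratios of -4.72 within E3 and -1.53 within E7. TAGLN (-4.03) and the intermediate filament gene VIM (-1.93) were lower, and ACTB (-0.49) was no DEG.

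Targets of the mechanically driven regulators YAP and SRF did not move as 1 group. Of 20 tested, 7 were lower and 3 were higher. CTGF, the connective tissue growth factor (chromosome 12, 122183019 to 122186016), read 120.4, 151 and 149 FPKM on the dish and 5.80, 6.81 and 6.99 in 3D (21.4-fold lower, log2 fold change -4.42 ± 0.13, edgeR adjusted p = 3.68e-08), and the enzyme step on the dish differed by 0.40 (edgeR adjusted p = 0.919). CYR61, its closest relative in the list, read 89.6, 103 and 114 FPKM in 2DC_L and 152, 177 and 116 in 3DF_50 and was no DEG (0.54). After the enzyme step on the dish it averaged 979 ± 42.0 FPKM, so that 2DC exceeded 2DC_L by 3.26 on the log2 scale (edgeR adjusted p = 5.38e-06) and 3DF_50 lay below 2DC (-2.72, edgeR adjusted p = 7.42e-06). SRF itself was higher in 3DF_50 than in 2DC_L by 1.49 and higher in 2DC than in 2DC_L by 1.98. FHL1 (2.45) and the coagulation starter F3 (1.61) were higher, with digestion values of -0.04 and 0.30.

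**Figure D4:**
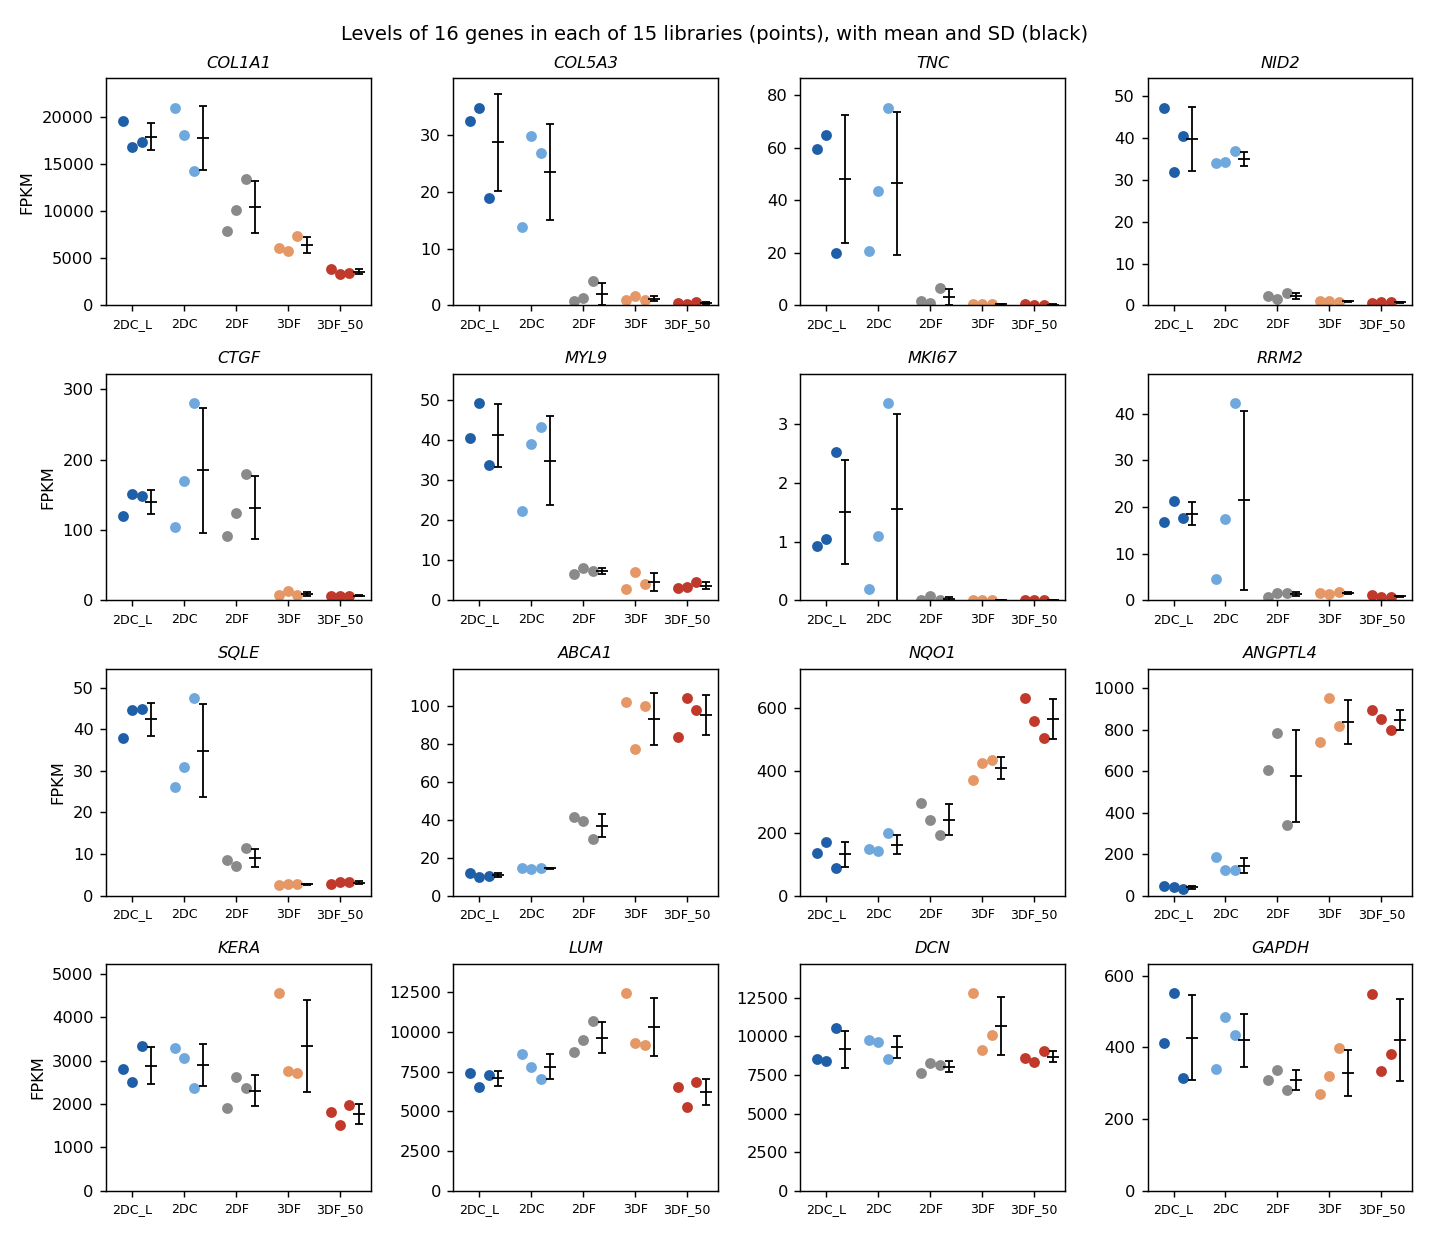
FPKM of selected genes in each of the 15 libraries, 1 panel per gene with its own linear axis; points are libraries, black marks are means with SD (n = 3), and the conditions run 2DC_L, 2DC, 2DF, 3DF and 3DF_50. COL1A1, TNC, NID2 and MYL9 lie lower in 3DF_50 than in both coated-dish conditions, ABCA1 and NQO1 lie higher, and LUM, DCN and GAPDH overlap between 2DC_L and 3DF_50.

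Genes of the dividing cell were lower throughout or did not pass the test. Of 42 mitosis genes tested, 35 were lower and 0 were higher, with a median of -3.56; of 34 replication genes, 16 were lower and 0 were higher. MKI67, the proliferation marker, read 0.934, 1.05 and 2.54 FPKM in the dish libraries and had 0 counts in all 3D libraries. Against a floor of 3 counts in each of the 3 libraries it was at least 89.1-fold lower. By the same floor the kinetochore gene CENPF was at least 62.1-fold, the replication gene GINS1 at least 10.4-fold and the replication-linked gene TCF19 at least 83.9-fold lower. CDK1, the kinase that starts mitosis, had 413 counts over the dish libraries and 1 count over the 3D libraries, a ratio of 313 with a 95% exact interval of 55.9 to 12390 that covers counting error only.

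Several cell cycle genes were low on the dish too, so the decreases started from modest levels. TOP2A, which untangles chromosomes, read 2.84, 3.04 and 6.11 FPKM on the dish and 0.283, 0.315 and 0.297 FPKM in 3D. RRM2, the inducible subunit of ribonucleotide reductase, was more abundant and even among replicates, with 16.7, 21.4 and 17.7 FPKM in 2DC_L and 1.06, 0.837 and 0.813 FPKM in 3DF_50 (log2 fold change -4.36 ± 0.16, edgeR adjusted p = 1.03e-07; -4.32 within E3 and -4.40 within E7). TK1, thymidine kinase, was lower by 5.77 on the log2 scale. PCNA, the replication clamp, read 33.7, 42.4 and 34.5 FPKM and 26.7, 30.0002 and 26.2 FPKM and did not reach the fold limit (-0.42). The coated dish with digestion was uneven for these genes: RRM2 averaged 21.4 ± 19.1 FPKM in 2DC (SD, n = 3) and was lower in 3DF_50 by 4.56 on the log2 scale (edgeR adjusted p = 0.00192).

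Of 26 genes that admit cells to the cycle or hold them back, 10 were lower and 2 were higher (8 and 4 with scaling to total counts). The lower ones were led by the E2F factors: E2F8 and E2F7 had 0 counts in all 3D libraries (at least 15.1-fold and 12.4-fold lower), and E2F1 was lower by 5.25 on the log2 scale. The higher ones were brakes on division. CDKN1A, the inhibitor p21, read 51.2, 68.1 and 38.0 FPKM on the dish and 201, 265 and 155 in 3D (1.98 ± 0.23, edgeR adjusted p = 0.000119; 0.92 between 2DC and 2DC_L, edgeR adjusted p = 0.865). BTG2, an antiproliferative gene that is also an immediate early gene, was higher by 3.83 in 3DF_50 and by 4.19 in 2DC, both against 2DC_L, and 3DF_50 and 2DC differed by -0.36 (edgeR adjusted p = 0.0529).

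Immediate early genes were nearly all higher. Of 29 tested, 26 were higher and 0 were lower, with a median of 2.88. FOS, a partner in the AP-1 dimer (chromosome 20, 29860066 to 29863336), read 0.311, 0.251 and 0.343 FPKM in 2DC_L and 540.5, 648 and 671 FPKM in 3DF_50. FOS was thus barely detected in any dish library and among the abundant transcripts in every 3D library (log2 fold change 11.02 ± 0.20, edgeR adjusted p = 1.73e-09; 11.02 within E3 and 10.89 within E7). EGR1, a zinc finger factor (chromosome 3, 20738615 to 20742487), read 2.42, 2.17 and 3.17 FPKM and 670.2, 689.8 and 626 FPKM, a difference of 8.02 ± 0.19. FOSB (8.46), EGR2 (5.72), IER2 (3.87) and JUN (3.75) followed. SGK1 (-0.76), KLF6 (0.50) and NFKBIZ (0.46) were the members that were no DEGs.

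Many of these genes also differed between the coated-dish conditions. In 2DC against 2DC_L, where only 0.257% of genes tested were higher DEGs, 13 of the immediate early genes were. FOS averaged 242 ± 31.1 FPKM in 2DC (SD, n = 3), which was 9.66 above 2DC_L on the log2 scale (edgeR adjusted p = 1.32e-07), and 3DF_50 was a further 1.36 above 2DC (edgeR adjusted p = 8.6e-05). EGR1 averaged 623 ± 46.2 FPKM in 2DC and 662 ± 32.5 in 3DF_50, which differed by 0.09 (edgeR adjusted p = 0.531). JUN (0.39, edgeR adjusted p = 0.11) and IER2 (-0.18, edgeR adjusted p = 0.297) were no DEGs between 3DF_50 and 2DC either. Against 2DC, 13 immediate early genes were higher in 3DF_50 and 2 were lower. Of these conditions only 3DF_50 was lifted and pelleted, and what part this had was not tested.

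HES1, ATF3 and KLF4 were higher in 3DF_50 than in both coated-dish conditions. HES1, a Notch-responsive repressor, read 0.550, 0.611 and 1.04 FPKM in 2DC_L and 9.55, 21.9 and 7.06 FPKM in 3DF_50 (4.19 ± 0.46), was no DEG between 2DC and 2DC_L (1.05, edgeR adjusted p = 0.587), and was higher in 3DF_50 than in 2DC by 3.11 (edgeR adjusted p = 0.000505). The stress factor ATF3 gave 2.94 against 2DC_L, 2.21 against 2DC and 0.74 for the enzyme step (edgeR adjusted p = 0.865). KLF4 was higher at each step, by 1.13 in 2DC over 2DC_L and by 1.88 in 3DF_50 over 2DC.

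Inhibitors that feed back on growth factor and cytokine signals were higher as well, at 14 of 26 tested with 0 lower. In 2DC against 2DC_L, 6 genes of this list were higher and 0 were lower. Against 2DC, 5 were higher in 3DF_50 and 2 were lower, and the list median was 0.38 in place of 1.01. DUSP1, a MAP kinase phosphatase, read 27.3, 32.4 and 22.2 FPKM on the dish and 261, 309.6 and 302 in 3D (3.41), with 3.12 for the enzyme step and 0.29 between 3DF_50 and 2DC (edgeR adjusted p = 0.0509). DUSP2 was higher in 3DF_50 than in 2DC_L (5.29) but lower than in 2DC (-2.02, edgeR adjusted p = 0.000191). DUSP6, the phosphatase of ERK, gave 3.62 ± 0.22 against 2DC_L and 2.41 against 2DC, while the enzyme step gave 1.22 (edgeR adjusted p = 0.854). SPRY4, which restrains receptor tyrosine kinases, gave 2.63, 1.57 and 1.05 in the same order, and the cytokine inhibitor SOCS3 gave 2.68, 1.82 and 0.87.

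**Figure D5:**
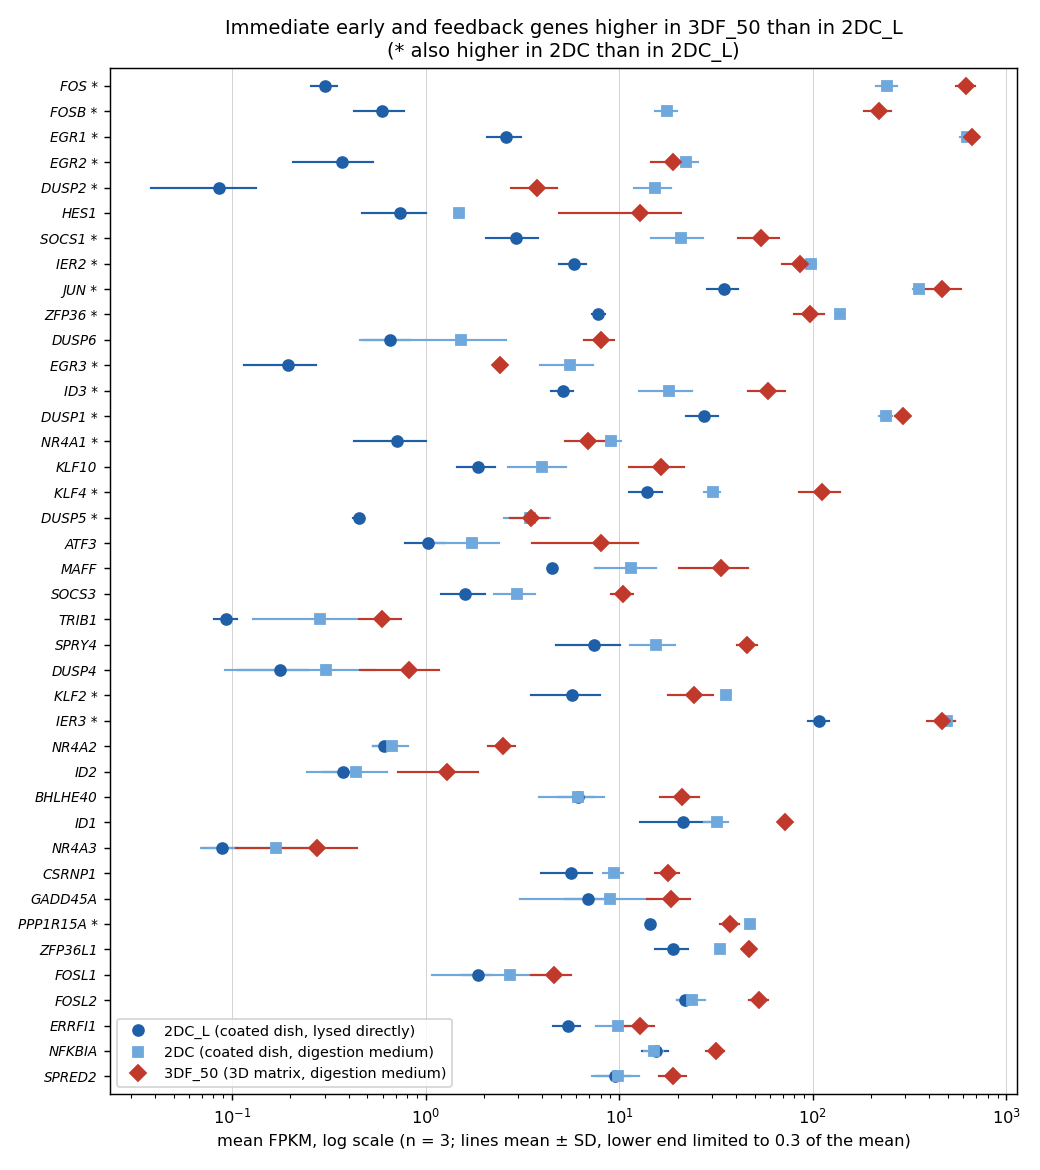
Mean FPKM on a log axis of the immediate early and feedback genes that were DEGs between 3DF_50 and 2DC_L, with lines for the SD (n = 3, limited at the lower end to 0.3 of the mean where longer): dark blue circles 2DC_L, light blue squares 2DC, red diamonds 3DF_50; an asterisk marks genes also higher in 2DC than in 2DC_L. EGR1 and IER2 have 2DC next to 3DF_50, whereas HES1, DUSP6 and SPRY4 have 2DC nearer to 2DC_L.

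Genes of cholesterol synthesis were lower together. Of 30 genes in the sterol list tested, 20 were lower and 2 were higher, with a median of -1.82. SQLE, squalene epoxidase (chromosome 3, 140710599 to 140735970), read 37.8, 44.5 and 44.8 FPKM in the dish libraries and 2.75, 3.18 and 3.33 FPKM in 3D, 13.7-fold lower (log2 fold change -3.77 ± 0.11, edgeR adjusted p = 3.68e-08). HMGCS1 (-3.21), TM7SF2 (-4.67) and the sterol carrier STARD4 (-4.44) were lower within both prefixes. Their regulator SREBF2 was lower (-1.50 ± 0.11), and SREBF1, which governs fatty acid synthesis, was no DEG (-0.24, edgeR adjusted p = 0.144).

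The 2 higher members were the cholesterol exporters. ABCA1 (chromosome 1, 8128430 to 8265889) read 11.79, 9.90 and 10.5 FPKM in 2DC_L and 83.8, 104 and 97.8 in 3DF_50, 8.89-fold higher with narrow groups (log2 fold change 3.15 ± 0.13, edgeR adjusted p = 2.15e-07). ABCG1 was higher by 1.83. No sterol gene was a DEG between 2DC and 2DC_L, where the list median was -0.24. Only 0.265% of all genes tested were DEGs there, so a list of this size without a DEG says little. In 3DF_50 against 2DC, 20 were lower and 3 were higher, against 7.33% and 4.28% of all genes tested. SQLE, for example, was lower than in 2DC by 3.49 on the log2 scale (edgeR adjusted p = 1.15e-05).

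In the list of glucocorticoid, metal and oxidative stress genes, 8 of 16 were higher and 0 were lower. Apart from CRISPLD2 these were targets of NRF2, which guards against oxidants. NQO1, a quinone reductase (chromosome 5, 25137496 to 25149679), read 135, 171 and 88.7 FPKM on the dish and 632, 559.6 and 504 in 3D (2.10 ± 0.21, edgeR adjusted p = 4.52e-05). SRXN1 (2.73), GCLC (1.89), the start of glutathione synthesis, and TXNRD1 (1.41) were higher. HMOX1, heme oxygenase, varied more on the dish, at 290.2, 385 and 123 FPKM against 725, 564 and 468 in 3D (1.14, edgeR adjusted p = 0.0217), and was no DEG against 2DC (0.39). Its call was lost without 2DC_L replicate 3 (0.79), 3DF_50 replicate 1 (0.95) or 3DF_50 replicate 2 (1.16), and with a block on the library prefix over all 15 libraries (1.22, edgeR adjusted p = 0.0651). The glucocorticoid targets TSC22D3 (-0.67) and FKBP5 (-0.16) were no DEGs.

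Energy genes changed at a few points only. In glycolysis and hypoxia 4 of 38 were higher (10.5%) and 1 was lower (2.63%), or 8 and 0 with scaling to total counts. Of 43 respiratory chain genes 1 was higher (2.33%). Among all genes tested 5.05% were higher and 8.47% lower. ANGPTL4, a secreted inhibitor of lipoprotein lipase, read 46.8, 41.3 and 30.7 FPKM on the dish and 897, 850.2 and 800.2 in 3D, 21.4-fold higher (log2 fold change 4.42 ± 0.17, edgeR adjusted p = 1.71e-07). It was higher by 1.86 in 2DC over 2DC_L and by 2.56 in 3DF_50 over 2DC. PDK4, which diverts pyruvate from mitochondria, was 12.9-fold higher, and VEGFA, the vascular growth factor, read 28.5, 32.6 and 20.1 FPKM and 124, 169.8 and 110.3 FPKM (2.31). The glycolytic enzymes themselves were mostly no DEGs: GAPDH read 413, 550.5 and 315 FPKM and 549.8, 333 and 381 FPKM, with overlap (-0.02), and LDHA differed by -0.44. Of 64 ribosomal protein genes, whose many pseudogenes can split reads, 1 was lower, RPLP0 (-1.01). RPLP0 was no DEG at -0.98 without 2DC_L replicate 1 or at -0.84 without 3DF_50 replicate 2. Nor was it a DEG at -0.80 with any block on the library prefix or at -0.66 with scaling to total counts. The ribosomal list median was -0.31, and 55 of the 64 genes had a negative fold change. Library ratios had list medians of -0.03 within E3, -0.16 within E7 and -0.83 for 3DF_50 replicate 2 over 2DC_L replicate 1. The list summed to 13601 FPKM in 3DF_50 replicate 2, against 21760 in replicate 1 and 19389 in replicate 3.

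Secreted signals were mixed in direction. Of 37 growth factor and receptor genes 12 were lower and 2 were higher (10 and 6 with scaling to total counts). EDN1, endothelin, read 20.5, 20.0 and 19.6 FPKM on the dish and 0.734, 0.349 and 0.329 FPKM in 3D (42.7-fold lower, edgeR adjusted p = 1.71e-07), while its receptor EDNRB was higher by 2.40. FGF1 (-5.57), NRG1 (-5.43), PDGFB (-4.27) and IGF1 (-3.29) were lower, and so was IGFBP5, which binds insulin-like growth factors (73.4 ± 8.69 FPKM on the dish and 12.7 ± 3.997 in 3D, SD, n = 3). Among 44 genes of the TGF-beta, BMP and Wnt pathways, 7 were higher and 6 were lower (10 and 4 with scaling to total counts). The ligands INHBB (3.07) and GDF5 (2.30) were higher. WNT2 (-4.12) and the secreted Wnt modulator DKK3, at 220.4, 281 and 165 FPKM on the dish and 41.2, 33.1 and 29.5 in 3D, were lower.

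Of 24 inflammatory mediators 5 were higher and 2 were lower (7 and 1 with scaling to total counts). The chemokine CCL2, which draws monocytes, read 25.2, 37.7 and 31.3 FPKM in 2DC_L and 295, 379.6 and 278 in 3DF_50 (3.34 ± 0.17, edgeR adjusted p = 8.11e-07). Its value for the enzyme step was 1.07 and against 2DC it was 2.26. The cytokines LIF (3.14) and CSF3 (3.51) were higher at low levels, and LIF was no DEG with a block on the library prefix over all 15 libraries (2.39, edgeR adjusted p = 0.0587). PTGS2, cyclooxygenase 2, was higher by 1.80 against 2DC_L, but 3DF_50 and 2DC differed by -0.42 (edgeR adjusted p = 0.187). Of 27 interferon response genes 3 were higher and 3 were lower (11.1% each), against 5.05% and 8.47% of all genes tested. The higher ones were led by the exonuclease ISG20 (4.77) and the lower ones by the deconjugating enzyme USP18 (-3.02). Scaling to total counts gave 4 higher and 2 lower.

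Of 35 genes of contacts between cells 16 were lower and 2 were higher. CDH8 read 39.2, 36.7 and 57.9 FPKM on the dish and 2.99, 2.41 and 3.06 FPKM in 3D, and the adhesion molecule NCAM1 read 24.3, 24.5 and 30.9 FPKM and 1.93, 1.97 and 2.36 FPKM (log2 fold changes -3.98 and -3.67). The cadherin CDH13 was lower by 3.72 on the log2 scale, and the gap junction gene GJA1 differed by -0.78 without reaching the limit. The protocadherins PCDH1 (1.68) and PCDH18 (1.49) were higher. Among 39 guidance genes 13 were lower and 4 were higher: SEMA3C, a secreted semaphorin, averaged 154 ± 42.4 FPKM on the dish and 25.4 ± 2.27 in 3D (SD, n = 3), and the ephrin receptor EPHA5 was higher by 2.53.

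Stress genes moved both ways, and survival genes were higher in part. Of 31 genes of the heat shock and unfolded protein responses 4 were higher and 5 were lower (6 and 3 with scaling to total counts). DDIT3, the stress factor CHOP, read 12.5, 16.0042 and 14.57 FPKM and 60.7, 90.3 and 55.0 FPKM (2.26 ± 0.18), with 1.22 for the enzyme step (edgeR adjusted p = 0.00184) and 1.04 against 2DC. ASNS (-1.68) and the folding enzyme PDIA6 (-1.41) were lower. Of 28 survival and apoptosis genes 9 were higher and 0 were lower, on both sides of the balance: the survival factor BCL2 (2.01), the survival kinase PIM1 (1.52), and the death promoters BMF (1.62) and BCL2L11 (1.36). Of 36 lysosome and autophagy genes 1 was higher (2.78%) and 3 were lower (8.33%), or 4 and 0 with scaling to total counts. The higher one, the autophagy receptor SQSTM1, read 192, 212 and 176 FPKM on the dish and 575, 632 and 517 in 3D (1.57). Of 16 clock genes 1 was higher (6.25%, and 4 genes with scaling to total counts), the repressor NR1D1 (1.24). Neither list exceeded the shares of all genes tested, 5.05% higher and 8.47% lower, by more than a small margin.

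Several of the genes that differed most lie outside these groups. PTX3, a soluble pattern receptor that joins the hyaluronan matrix (chromosome 14, 51841657 to 51848103), read 52.8, 67.6 and 55.3 FPKM on the dish and 0.357, 0.235 and 0.370 FPKM in 3D (181-fold lower, edgeR adjusted p = 9.68e-09). TINAGL1, a matrix glycoprotein, read 33.9, 30.3 and 29.3 FPKM and 0.0255, 0.267 and 0.434 FPKM. SLCO1B3, an organic anion carrier best known from liver, read 13.3, 14.3 and 9.92 FPKM and 0.0938, 0 and 0 FPKM, with 4 counts over the 3D libraries. On the other side, the antimicrobial peptide gene DEFB1 had 0 counts on the dish and 2.72, 1.85 and 3.60 FPKM in 3D, at least 9.17-fold higher. The transcription factor gene ATOH8 averaged 0.0730 ± 0.0424 FPKM on the dish and 2.05 ± 0.207 in 3D, and the ubiquitin ligase gene PDZRN4 averaged 0.0871 ± 0.0231 and 2.04 ± 0.0476 (SD, n = 3).

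Set against 2DC in place of 2DC_L, the same 3D libraries gave 1557 DEGs among 13402 genes (11.6%), 574 higher (4.28%) and 983 lower (7.33%). The enzyme step on the dish gave 36 DEGs among 13608 genes (0.265%), 35 higher (0.257%) and 1 lower (0.00735%). None of the collagen, basement membrane, mitosis or replication genes listed was a DEG of the enzyme step. So few genes were DEGs there (0.265%) that lists of this size without one say little. For COL1A1 the enzyme step gave -0.01 on the log2 scale (edgeR adjusted p = 0.997), for TNC -0.06 ± 0.51 (SE) and for RRM2 0.19. Between the densities 60 of 13285 genes (0.452%) were DEGs, 18 higher (0.135%) and 42 lower (0.316%) in 3DF_50 than in 3DF. Single libraries decided that count, which dropped to 0 without 3DF_50 replicate 1 or without 3DF_50 replicate 2 (edgeR, with 1847 and 1491 genes at an unadjusted p under 0.05) and 4 without 3DF replicate 3, while DESeq2 on all libraries gave 201. In the fit with all libraries, 3 of the 27 basement membrane genes and 4 of the 34 proteases and inhibitors were lower in 3DF_50 than in 3DF. In both lists 0 were higher, against 0.316% lower and 0.135% higher of all genes tested. None of the 11 fibrillar collagen chains or 41 matrix glycoprotein genes was a DEG, with list medians of -0.76 and -0.38. COL1A1 was lower in 3DF_50 than in 3DF by 0.81 and OGN by 1.000 on the log2 scale, neither a DEG (edgeR adjusted p = 0.0824 and 0.138).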

How the data were processed

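The deposited tables gave, for 23428 rabbit genes and 15 libraries, raw read counts per gene and FPKM, both made by the authors from reads aligned to oryCun2 with HISAT2 2.0.5 and counted with featureCounts 1.5.0-p3. Symbols of 700 further genes came from RefSeq by gene ID.

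Counts of the compared conditions alone were fitted with edgeR 4.0.16 (TMM, filterByExpr with a minimum count of 10, quasi-likelihood F test, Benjamini-Hochberg adjustment over all genes tested). DEGs passed at an adjusted p of 0.05 and differed by 1 or more on the log2 scale. SE is the fold change over the root of F. Levels are FPKM. Ratios within a prefix used CPM plus a prior count of 0.5 and TMM factors. Genes with 0 counts in a condition were set against 3 counts in each of its libraries, and this bound covers counting error only. Alternatives were DESeq2 1.42.0, limma 3.58.1 on FPKM (log2 after adding 1 or 0.1), other scalings and filters, blocks and leaving out libraries. The main edgeR fit, its replicate and prefix blocks on the 6 libraries, DESeq2, and limma after adding 1 were tested on simulated counts of the main comparison. The other settings were not tested on simulated data.

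The 8 most changed DEGs each way, up to 6 DEGs and 3 other genes per list and genes the study names were eligible for naming; others were named after their values were seen. The members and lists were chosen with earlier results of these data known. Library depth was 14626982 to 31804255 counts over the 15 libraries. Replicates of a condition differed by more than counting noise, and none was counted as a duplicate.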

Additional observations from a re-analysis of the deposited data

How the results depend on the processing

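Without one library at a time, 3DF_50 against 2DC_L gave 1677 to 1924 DEGs (600 to 670 higher, 1029 to 1264 lower), and 1349 DEGs were called in every such fit. DESeq2 gave 1873 DEGs, of which 1721 were shared. Scaling to library size alone gave 1357 higher and 747 lower genes, with 1420 DEGs shared and the median of all genes moved by 0.36; leaving the 10 largest genes out of the library size, chosen after seeing the data, gave 864 higher and 957 lower. Limma on log2(FPKM + 1), which shrinks low genes, gave 946 DEGs (318 higher, 628 lower). With no fold limit there were 5713 (2774 higher, 2939 lower), and with a log2 limit of 2 there were 605 (186 higher, 419 lower). No named gene changed sign while called. Deviations of same-numbered libraries correlated at 0.124, 0.062 and 0.243, and those of differently numbered libraries at -0.162 to 0.083. The pair at 0.243 also shared the prefix E7, and the other pair that shared a prefix was at 0.083. Deviations were taken from the mean of each condition, so these values are not independent. Whether replicate numbers pair the samples was not tested. A replicate block gave 1839 DEGs, 1775 of them shared; a block on the library prefix gave 1689 with the 6 libraries and 1697 with all 15, and the E3 and E7 libraries gave 1717 with the block and 1555 without.

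For 3DF_50 against 2DC, limma on log2(FPKM + 1) gave 779, no fold limit 5098, a limit of 2 gave 494, library size alone 1206 higher and 633 lower, and leaving out a library 1334 to 1569. For 2DC against 2DC_L a limit of 2 gave 23 and leaving out a library 28 to 38. For 3DF_50 against 3DF, DESeq2 gave 201, no filter 155, a fit with all 5 conditions 196, the prefix block 10, limma 6 with a pseudocount of 1 and 16 with 0.1, an adjusted p of at most 0.01 gave 1, a limit of 2 gave 15, and leaving out a library 0 to 77; the cause was not tested. Depth limited genes with few counts: 10 DEGs had 0 counts in every 3DF_50 library and 1 in every 2DC_L library, so their folds are bounds.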
